A study of Arabidopsis thaliana with 11 samples.

Results

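The D-type cyclins of Arabidopsis were followed through sorted cells of the stomatal lineage. The family was taken by locus code, as CYCD1;1 (AT1G70210), CYCD2;1 (AT2G22490), CYCD3;1 (AT4G34160), CYCD3;2 (AT5G67260), CYCD3;3 (AT3G50070), CYCD4;1 (AT5G65420), CYCD4;2 (AT5G10440), CYCD5;1 (AT4G37630), CYCD6;1 (AT4G03270) and CYCD7;1 (AT5G02110). These are 10 of the 33602 genes in the deposited table, and the RefSeq symbol of every locus code was the cyclin named here. Expression was measured by RNA sequencing of protoplasts, which are leaf cells freed of their walls, sorted by fluorescence from the shoots of seedlings grown for 10 days, all in the Col background. The 11 libraries come from 5 marker lines. ML1Y, a membrane YFP (ML1p::YFP-RCI2A), marks the whole epidermis (2 libraries). SSY (SPCHp::SPCH-YFP), in which the SPCH promoter drives SPCH fused to YFP, marks meristemoid mother cells and young meristemoids (3 libraries). MG (MUTEp::nucGFP), with a nuclear GFP driven by the MUTE promoter, marks late meristemoids and young guard mother cells (2 libraries). FGF (FAMAp::GFP-FAMA), in which the FAMA promoter drives GFP fused to FAMA, marks guard mother cells late in their life and guard cells newly formed from them (2 libraries). E1728G (E1728::GFP), a GFP enhancer trap line, marks mature guard cells (2 libraries). SSY and FGF plants carry a tagged copy of the stage factor itself, while ML1Y, MG and E1728G plants carry a reporter. Each library came from 4000 to 20000 sorted cells. Nothing states whether replicates came from separate plantings or sorts, so the tests measure the spread between these libraries, which may be technical.

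D-type cyclins bind the cyclin-dependent kinase CDKA;1, and the complex phosphorylates the retinoblastoma protein RBR1, which releases E2F factors and lets a cell pass from G1 into DNA replication. KRP and SIAMESE-type proteins inhibit these complexes. In the stomatal lineage, asymmetric divisions of meristemoids are followed by a single symmetric division of the guard mother cell, after which guard cells stop dividing. CYCD3 cyclins are known from proliferating leaf cells, and CYCD5;1 and CYCD7;1 from the guard mother cell division.

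All values are the authors' normalized log2-scale expression values, and read depth is unknown. Levels are mean ± SD over libraries, and differences are log2 differences ± the standard error (SE) of a limma fit over all 11 libraries. A gene was called when its adjusted p, over 29850 tested genes, was under 0.05. All 10 cyclins passed the filter on low values (a log2 value of 3.32 or more in 2 or more libraries). The SSY libraries stood apart, with a highest rank correlation to any other library of 0.805 to 0.813 against 0.891 to 0.946 for the rest. SPCH stood at 5.15 to 6.12 in SSY and 5.92 to 6.36 in ML1Y, so the line built on SPCH was not marked by its transcript. SSY plants carry SPCH-YFP, whose transcript may count as SPCH, so the SSY values may include it. MUTE (7.65 and 9.86 in MG, at most 5.24 elsewhere) and FAMA (14.03 and 14.90 in FGF, at most 12.39 elsewhere) were highest in their own lines. FGF plants carry GFP-FAMA, whose transcript may count as FAMA, so this value does not by itself mark the sorted cells. Of 10 stomatal stage markers, 8 had positive differences in SSY against ML1Y. FAMA alone was called higher (limma adjusted p = 0.0317), where 0.801% of all genes were. EPF2 had a mean of 2.89 in both, and BASL 4.22 in SSY against 4.80 in ML1Y. The summed level of 6 mesophyll markers was 18.10 to 18.41 in ML1Y and 13.11 to 14.70 in the 9 other libraries. The summed level of 7 mature guard cell markers, led by the myrosinase TGG1, was 16.72 to 17.28 in ML1Y and MG and 18.64 to 20.85 in SSY, FGF and E1728G. In SSY against ML1Y all 7 had positive differences. TGG1 was the 1 marker of the 7 called higher there (limma adjusted p = 0.00372), where 0.801% of all genes were. The summed level of 6 meristem and leaf primordium markers was 8.11 to 8.19 in ML1Y, 7.57 to 8.68 in SSY, 7.61 to 7.68 in MG, 7.78 to 8.40 in FGF and 7.73 to 7.97 in E1728G.

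Related members share sequence, which bears on how reads can be assigned. Over the aligned coding bases, the pair of CYCD4 genes was 79% identical. In the CYCD3 subfamily, CYCD3;2 and CYCD3;3 were 78.1% identical, while CYCD3;1 was 65.5% identical to the latter. The longest stretch that the CYCD4 genes have in common has 37 bases (coding bases 656 to 692 of the first and 599 to 635 of the second, across an exon junction on chromosome 5 in both), and it is shown because a read within it cannot be placed.
CYCD4;1 and CYCD4;2: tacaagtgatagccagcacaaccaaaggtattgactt
The longest runs shared in the same pairs of CYCD3 genes have 24 and 17 bases. In the RefSeq annotation of TAIR10.1 the bases upstream of CYCD3;1 belong to the last exon of its neighbour AT4G34150 and are not shown. The 250 bases upstream of the annotated start of 4 members are given, in the order of the names below, because the first was called against ML1Y and the others are examples of members described for the stomatal lineage. They lie in TAIR10.1 at chr5:26835889-26836138 (plus strand), chr5:26144021-26144270 (minus strand), chr4:17678918-17679167 (plus strand) and chr5:416667-416916 (plus strand). Capitals mark matches on either strand to the E-box CANNTG, the sequence class bound by bHLH factors such as SPCH, MUTE and FAMA.
CYCD3;2: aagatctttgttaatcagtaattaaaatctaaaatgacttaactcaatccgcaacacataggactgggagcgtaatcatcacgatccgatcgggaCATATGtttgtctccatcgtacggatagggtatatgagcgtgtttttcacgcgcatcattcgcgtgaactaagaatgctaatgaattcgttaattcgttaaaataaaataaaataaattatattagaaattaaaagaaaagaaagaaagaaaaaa
CYCD4;1: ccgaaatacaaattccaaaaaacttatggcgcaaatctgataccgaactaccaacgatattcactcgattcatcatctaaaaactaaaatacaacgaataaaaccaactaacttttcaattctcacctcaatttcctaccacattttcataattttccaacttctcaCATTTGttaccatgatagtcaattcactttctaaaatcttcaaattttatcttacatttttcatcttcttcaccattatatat
CYCD5;1: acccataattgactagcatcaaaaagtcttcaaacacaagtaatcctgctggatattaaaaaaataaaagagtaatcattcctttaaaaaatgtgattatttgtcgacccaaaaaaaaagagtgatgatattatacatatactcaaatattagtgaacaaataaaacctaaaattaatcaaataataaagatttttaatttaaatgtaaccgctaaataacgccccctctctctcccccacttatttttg
CYCD7;1: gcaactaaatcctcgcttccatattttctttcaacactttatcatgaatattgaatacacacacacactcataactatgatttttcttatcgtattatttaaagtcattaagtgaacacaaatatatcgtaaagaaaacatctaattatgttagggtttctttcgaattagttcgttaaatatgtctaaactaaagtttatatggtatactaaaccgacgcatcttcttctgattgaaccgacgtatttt
The first window holds an E-box at bases -155 to -150 and the second holds an E-box at -83 to -78. The last 2 windows hold none of these letters. The window upstream of CYCD3;1, in bases that belong to its neighbour, also matched the E-box. Counted with it, an E-box occurred upstream of 3 of the 10 cyclins and in 55.3% of all 27443 protein-coding promoters of that length. The G-box CACGTG, a form of the E-box, occurred in 0 of 10 and 6.49%.

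CYCD3;1, known to promote proliferation of young leaf cells, had the smallest F test p of the 10 cyclins. It stood at 7.40 and 7.49 in ML1Y, 5.19, 4.81 and 5.75 in SSY, 7.89 and 8.22 in MG, 4.85 and 4.49 in FGF, and 4.51 and 4.82 in E1728G. The 4 libraries of ML1Y and MG all lay above the 7 others, with no value between 5.75 and 7.40. In bulk samples, fewer cells that express a gene and less RNA per cell cannot be told apart. Over the 5 groups it passed the F test (limma adjusted p = 0.00249), and so did CYCD3;2, which makes 2 of 10 members where 6.21% of all genes passed. Over the 4 stages alone it was the 1 member of 10 that passed (adjusted p = 0.00791), against 3.27% of all genes.

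In the stage order of the marker lines, the gene rose from SSY to MG and fell from MG to FGF. Whether the SSY sort held earlier cells than MG was not tested, and its mature guard cell markers were high. The rise was 2.81 ± 0.47, or 7-fold (limma adjusted p = 0.0131), and 1 of 10 cyclins rose where 1.75% of genes did. The drop was -3.38 ± 0.51, so that MG stood 10.4-fold above FGF (adjusted p = 0.0253). The gene was the 1 cyclin of 10 among 23 genes called lower in FGF than in MG, which are 0.0771% of those tested. FGF and E1728G had the same mean, with a difference of -0.01 ± 0.51. From MG to E1728G the drop was -3.39 ± 0.51 (adjusted p = 0.0113), and 1 of 10 cyclins fell where 0.251% of genes did. The call for the rise ended without MG replicate 2 (adjusted p = 0.0737). The call from MG to FGF ended without ML1Y replicate 1 (0.0599), ML1Y replicate 2 (0.0568), MG replicate 2 (0.107), FGF replicate 1 (0.0721) or FGF replicate 2 (0.182), where the log2 difference stayed between -3.56 and -3.21. The call from MG to E1728G ended without MG replicate 2 (0.0684) or E1728G replicate 1 (0.145). Fitted on the compared groups alone, the rise (adjusted p = 0.123) and both drops (0.201 to FGF and 0.143 to E1728G) did not pass, and the drop to FGF did not pass with quantile normalization (0.0557). Without the 3 SSY libraries both drops held (adjusted p = 0.0328 for FGF and 0.0167 for E1728G against MG).

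Against the whole epidermis, CYCD3;1 was lower in 3 of the 4 lineage sorts. The log2 difference was -2.20 ± 0.47 in SSY (limma adjusted p = 0.0126), -2.77 ± 0.51 in FGF (0.0107) and -2.78 ± 0.51 in E1728G (0.0105), which put ML1Y 4.58-fold, 6.83-fold and 6.86-fold higher. In MG it was 0.61 ± 0.51 above ML1Y and did not pass (adjusted p = 0.844), although the libraries did not overlap. The order of the group means was MG (8.06 ± 0.23, n = 2), ML1Y (7.44 ± 0.06, n = 2), SSY (5.25 ± 0.48, n = 3), FGF (4.67 ± 0.25, n = 2) and E1728G (4.67 ± 0.22, n = 2). The step between ML1Y and SSY passed, while MG against ML1Y, SSY against FGF (-0.58 ± 0.47 for FGF) and FGF against E1728G did not.

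**Figure D1:**
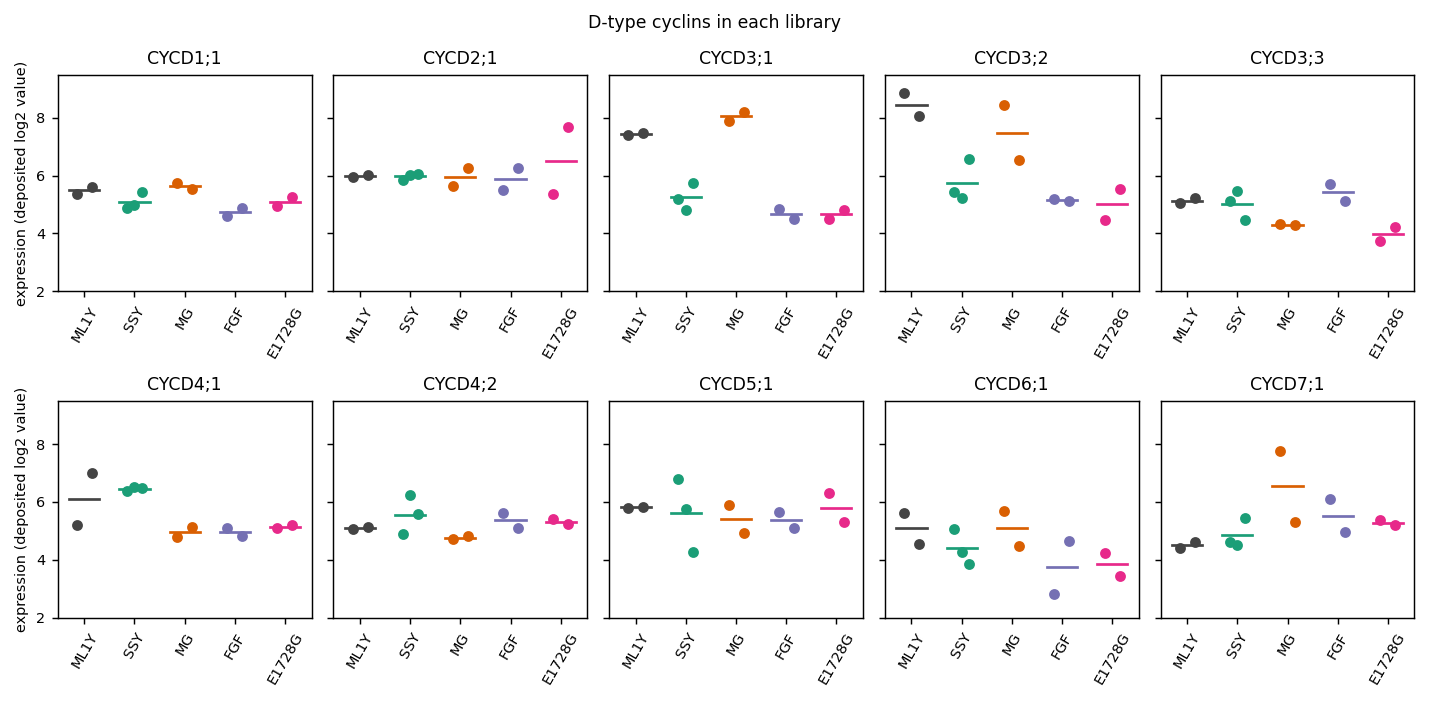
Deposited log2 expression value (vertical axis) of each of the 10 D-type cyclins in the 11 libraries (points), by marker line (horizontal axis), with group means as lines. CYCD3;1 lies between 7.40 and 8.22 in ML1Y and MG and between 4.49 and 5.75 in the other lines, and CYCD7;1 reaches 7.78 in MG replicate 1 only.

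CYCD3;2, which acts with the other CYCD3 genes in leaf cell proliferation, followed a like order with a wider spread. It stood at 8.85 and 8.05 in ML1Y, 5.42, 5.23 and 6.56 in SSY, 8.43 and 6.54 in MG, 5.20 and 5.12 in FGF, and 4.48 and 5.53 in E1728G. Both ML1Y libraries lay above every SSY, FGF and E1728G library, while MG replicate 2 lay within the range of SSY. It fell against ML1Y, with log2 differences of -2.71 ± 0.65 in SSY (limma adjusted p = 0.0245), -3.29 ± 0.71 in FGF (0.0255) and -3.44 ± 0.71 in E1728G (0.0183). With the gene before it this made 2 of 10 cyclins lower in each of these sorts, where 4.75% of all genes were called lower in SSY, 1.89% in FGF and 2.09% in E1728G. No cyclin was called in MG against ML1Y (0 of 10 by limma), where 1.61% of genes were, and 1 of 10 had an unadjusted p under 0.05, where 10.7% of genes did. Between stages it did not pass: MG was 1.75 ± 0.65 above SSY (adjusted p = 0.18), FGF -2.32 ± 0.71 (0.261) and E1728G -2.48 ± 0.71 (0.153) against MG. Without single libraries these differences ranged from 0.80 to 2.70, from -3.27 to -1.37 and from -3.43 to -1.53.

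These calls against ML1Y rest on few libraries. In SSY both ended without ML1Y replicate 1 (limma adjusted p = 0.106 for CYCD3;1 and 0.243 for CYCD3;2) or ML1Y replicate 2 (0.137 and 0.112, in that order of genes), and that of the second gene also without SSY replicate 1 (0.0576) or SSY replicate 2 (0.0767). In FGF both ended without ML1Y replicate 1 (0.0828 and 0.221), ML1Y replicate 2 (0.124 and 0.126), FGF replicate 1 (0.0571 and 0.132) or FGF replicate 2 (0.126 and 0.176). In E1728G both ended without ML1Y replicate 1 (0.0764 and 0.181), ML1Y replicate 2 (0.113 and 0.103) or E1728G replicate 1 (0.122 and 0.219). Fitted on the SSY and ML1Y libraries alone, neither passed (0.0528 and 0.0588). Over all fits without 1 library the differences stayed between -2.95 and -1.98 for the first gene and between -3.96 and -2.31 for the second. Without the 3 SSY libraries the calls in FGF and E1728G held (adjusted p = 0.0101 and 0.00985 for the first gene, 0.0326 and 0.0249 for the second).

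CYCD3;3, the third gene of that subfamily, had another order of group means, led by FGF. It stood at 5.04 and 5.22 in ML1Y, 5.13, 5.47 and 4.46 in SSY, 4.32 and 4.29 in MG, 5.70 and 5.14 in FGF, and 3.73 and 4.23 in E1728G. MG, the group with the highest mean of its first paralog, lay below ML1Y, SSY and FGF, and the FGF libraries lay above those of MG and E1728G. None of its differences was called. FGF was 1.11 ± 0.47 above MG (limma adjusted p = 0.517), and E1728G was -1.43 ± 0.47 against FGF (adjusted p = 1), -1.15 ± 0.47 against ML1Y (0.292) and -1.04 ± 0.43 against SSY (0.242). No cyclin was called between E1728G and FGF (0 of 10 by limma), where 0.0101% of genes were, and 1 of 10 had an unadjusted p under 0.05, where 3.54% of genes did.

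**Figure D2:**
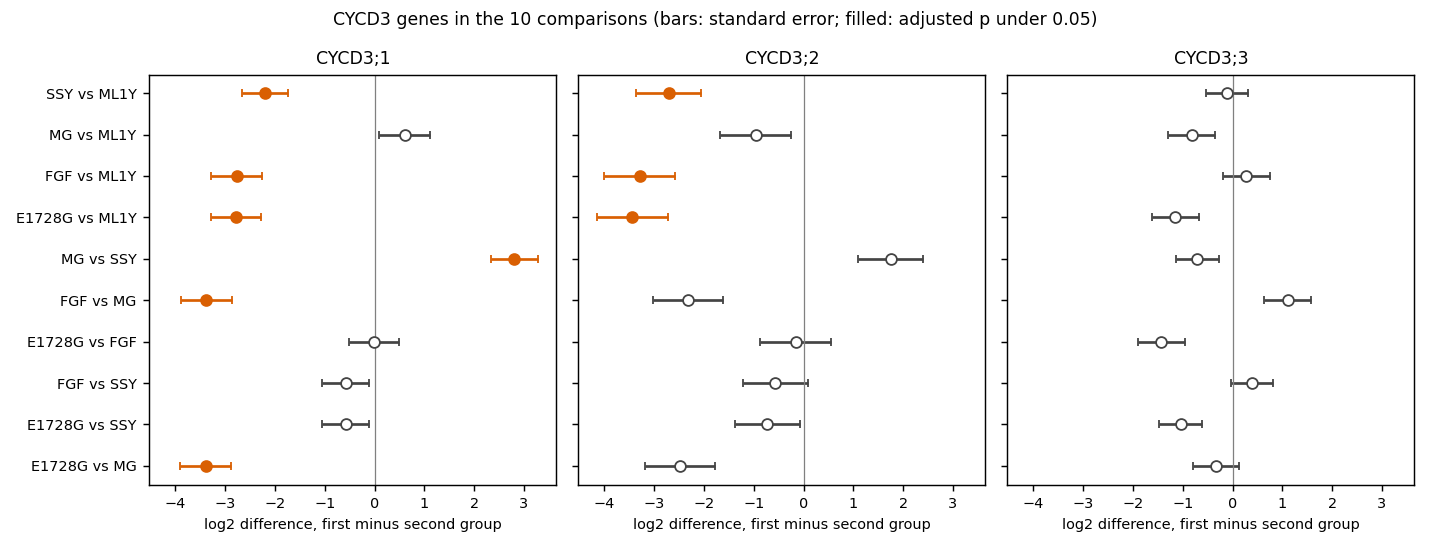
Log2 difference (horizontal axis, first group minus second group) of the 3 CYCD3 genes in the 10 comparisons (vertical axis), with bars for the standard error and filled points for an adjusted p under 0.05. CYCD3;1 is called in 6 comparisons, CYCD3;2 in 3 and CYCD3;3 in 0.

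Several marker sets also differed between the sorts, and most of them did not follow the order of the CYCD3 values. The summed level of the mature guard cell markers, which TGG1 makes up almost alone, was low in the groups in which CYCD3;1 was high. TGG1 had means of 16.85 in ML1Y and 17.12 in MG, and of 19.66 in SSY, 20.35 in FGF and 20.64 in E1728G. The other 6 markers were not all of this kind. KAT1, a guard cell potassium channel, had means of 6.28 in MG, 5.64 in SSY and 6.21 in E1728G, and the anion channel SLAC1 had 9.28 in MG and 8.73 in SSY. From SSY to MG 2 of the 7 markers had positive differences and 2 were called lower, where 0.375% of all genes were. From MG to FGF all 7 had positive differences and 2 were called higher, where 0.0603% of all genes were. The epidermis markers were 0 of 5 positive in FGF against MG (median -1.04, 0 called by limma and 2 at an unadjusted p under 0.05) and 0 of 5 positive in E1728G against MG (median -1.62), where PDF1 was called lower. Their summed level was 10.92 to 11.24 in ML1Y, 11.47 to 13.05 in SSY, 11.91 to 13.65 in MG, 11.42 to 11.92 in FGF and 11.31 to 11.66 in E1728G. The summed level of 5 trichome markers was 8.36 to 10.28 in SSY and 7.29 to 8.06 elsewhere. Of these TTG2 alone was called higher in SSY than in ML1Y, where 0.801% of all genes were. Its means were 8.53 in SSY and 5.41 in ML1Y (limma adjusted p = 0.012). In that comparison 4 of the 5 had positive differences, while GL2 had means of 6.21 in SSY and 6.76 in ML1Y. The mesophyll markers were high in ML1Y. In each lineage sort 5 of 6 were called lower, where 4.75% (SSY), 1.43% (MG), 1.89% (FGF) and 2.09% (E1728G) of all genes were. The summed level of the mesophyll markers was 13.11 to 13.47 in MG and 13.48 to 13.55 in FGF. The summed level of 5 vasculature markers was 8.39 to 8.42 in ML1Y and 7.16 to 8.17 elsewhere. The part of any of these marker sets in the cyclin differences was not tested.

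Some members share bases with an annotated neighbour, and neither the read counter nor the strand of the libraries is given in the sources used here. In the RefSeq annotation of TAIR10.1, AT4G34150 covers 40 bases at the start of CYCD3;1 on the same strand. AT4G34150 stood at 15.83 and 15.93 in ML1Y, 13.36, 13.37 and 12.64 in SSY, 13.71 and 13.67 in MG, 12.96 and 13.68 in FGF, and 12.74 and 13.09 in E1728G. It was thus high in ML1Y together with the cyclin. The part of its reads in the cyclin values was not tested. AT5G67265 shares 220 bases with CYCD3;2 on the opposite strand. It stood at 5.04 and 5.42 in ML1Y, 1.82, 4.13 and 2.24 in SSY, 4.61 and 5.95 in MG, 3.42 and 3.16 in FGF, and 3.43 and 2.79 in E1728G. All ML1Y and MG values of AT5G67265 were above those of the other groups. Without strand, reads within the 220 shared bases cannot be assigned to one gene of the pair. The part of such reads in the values of CYCD3;2 was not tested. AT4G03260, at 10.59 to 14.20, shares 847 bases with CYCD6;1 on the opposite strand, and AT1G70209, at -1.14 to 1.32, shares 144 bases with CYCD1;1.

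**Figure D3:**
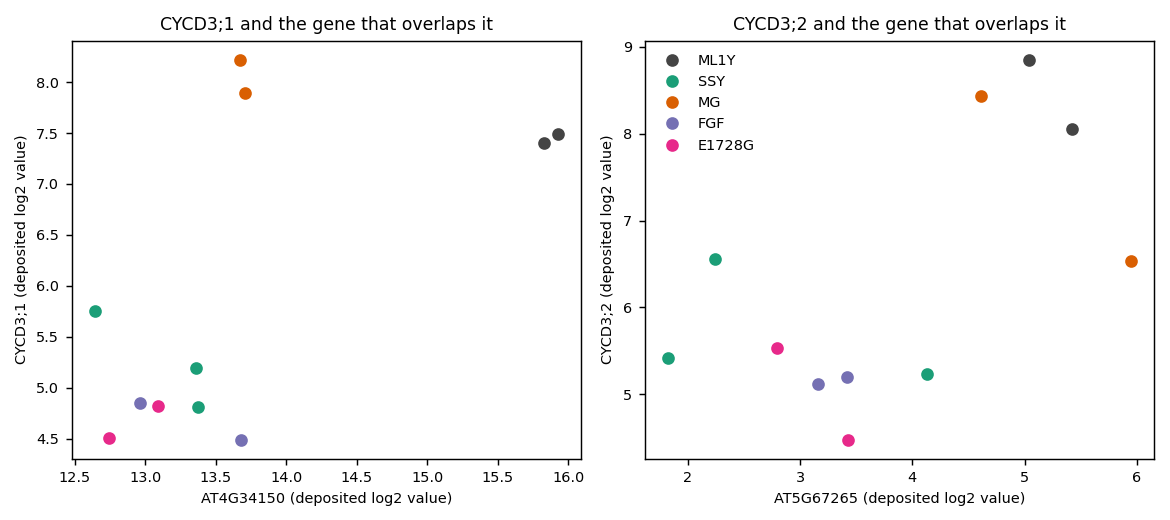
Deposited log2 value of CYCD3;1 against AT4G34150 (left) and of CYCD3;2 against AT5G67265 (right), the annotated genes that overlap them, with 1 point per library coloured by marker line. On the left AT4G34150 is highest in ML1Y and CYCD3;1 is highest in MG, and on the right high values of both genes occur in the same lines.

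CYCD7;1 (chr5:416917-418666, plus strand, TAIR10.1), known from guard mother cells shortly before their symmetric division, had its highest group mean in MG without a call. It stood at 4.40 and 4.61 in ML1Y, 4.60, 4.50 and 5.44 in SSY, 7.78 and 5.31 in MG, 6.10 and 4.96 in FGF, and 5.37 and 5.20 in E1728G. The MG value rests on replicate 1, while replicate 2 lay within the range of SSY and FGF. All MG, FGF and E1728G libraries were above both ML1Y libraries. MG was 2.04 ± 0.69 above ML1Y (limma adjusted p = 0.207) and 1.70 ± 0.63 above SSY (0.178), FGF was -1.02 ± 0.69 against MG (0.859), and E1728G was -0.24 ± 0.69 against FGF (adjusted p = 1). Without MG replicate 1 the difference of FGF from MG turned to 0.21. The MG replicates also differed in stage markers: MUTE stood at 7.65 in replicate 1 and 9.86 in replicate 2, the receptor-like protein gene TMM at 10.86 and 14.12, and FLP, a MYB factor that limits guard mother cell division, at 9.18 and 7.30.

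CYCD5;1, known as a target of MUTE at the guard mother cell division, showed no difference between the sorts beyond its spread. It stood at 5.78 and 5.84 in ML1Y, 6.80, 5.76 and 4.27 in SSY, 5.88 and 4.94 in MG, 5.64 and 5.11 in FGF, and 6.30 and 5.30 in E1728G. The group means ran from 5.37 to 5.81, a range of 0.44 against a pooled SD within groups of 0.85. Its differences between consecutive stages were -0.20 ± 0.64 (MG against SSY, limma adjusted p = 0.895), -0.04 ± 0.70 (FGF against MG, adjusted p = 1) and 0.43 ± 0.70 (E1728G against FGF, adjusted p = 1). Changes well above the size of these errors could also go uncalled, as that of CYCD3;2 did at -2.48 ± 0.71 in E1728G against MG.

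CYCD4;1 and CYCD4;2 are known to promote stomatal production in the hypocotyl. CYCD4;1 stood at 5.21 and 7.01 in ML1Y, 6.39, 6.51 and 6.49 in SSY, 4.80 and 5.13 in MG, 5.10 and 4.81 in FGF, and 5.10 and 5.19 in E1728G. The 3 SSY libraries were close to each other and above every MG, FGF and E1728G library, and the ML1Y libraries fell on either side of them. None of the differences was called: MG was -1.50 ± 0.51 (limma adjusted p = 0.148), FGF -1.51 ± 0.51 (0.149) and E1728G -1.32 ± 0.51 (0.211) against SSY. FGF and E1728G had no called cyclin against SSY (0 of 10 by limma), where 1.91% and 2.13% of genes were called, and 1 and 2 of 10 had an unadjusted p under 0.05, where 16.4% and 16.1% of genes did. CYCD4;2 stood between 4.73 and 6.24 over all libraries, and its order was SSY (5.57 ± 0.68, n = 3), FGF (5.36 ± 0.37, n = 2), E1728G (5.32 ± 0.13, n = 2), ML1Y (5.10 ± 0.03, n = 2) and MG (4.77 ± 0.05, n = 2), with no neighbouring groups called apart. Its libraries in SSY, at 4.88, 6.24 and 5.58, spanned nearly that whole range.

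The 3 other members were not called in any comparison. CYCD1;1, which is active in germinating seeds, had group means from 4.75 in FGF to 5.65 in MG, and its 2 FGF libraries, at 4.62 and 4.89, lay below those of ML1Y (5.38 and 5.62) and MG (5.76 and 5.54). CYCD2;1, known to respond to sugar supply, stood at 5.94 and 6.04 in ML1Y, 5.86, 6.02 and 6.05 in SSY, 5.65 and 6.28 in MG, 5.49 and 6.25 in FGF, and 5.35 and 7.67 in E1728G. Its lowest and its highest library were thus both from mature guard cells. CYCD6;1, known from a formative division in the root ground tissue, stood at 5.63 and 4.55 in ML1Y, 5.07, 4.26 and 3.85 in SSY, 5.68 and 4.49 in MG, 2.83 and 4.65 in FGF, and 4.24 and 3.45 in E1728G, with the lowest and the highest group means in FGF (3.74 ± 1.29, n = 2) and MG (5.09 ± 0.84, n = 2). The F test over 5 groups gave adjusted p = 0.592, 0.94 and 0.439 for these genes in turn.

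With 2 or 3 libraries a group, many genes had groups that did not overlap, so counts of such members are given beside the share of all genes. Against ML1Y the groups did not overlap for 2 of 10 cyclins in SSY (39.1% of all genes), 5 in MG (44.1%), 6 in FGF (51.5%) and 8 in E1728G (50.8%). Against SSY they did not overlap for 5 in MG (31.2%), 2 in FGF (34.2%) and 2 in E1728G (31.4%). Against MG the counts were 5 in FGF (36.6%) and 6 in E1728G (38.4%), and between E1728G and FGF the count was 3 (32.2%). The median log2 difference of the 10 cyclins against ML1Y was -0.16 in SSY, -0.18 in MG, -0.59 in FGF and -0.68 in E1728G, where the medians of all genes were 0.06, 0.03, 0.04 and 0.03.

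Divided by coding length, the levels show which cyclins made up the family total in each library. CYCD3;1 and CYCD3;2 together held 61.2% and 46.9% of the total in ML1Y and 49.4% and 53.3% in MG. They held 14.1%, 11.9% and 26.5% in SSY, 14.5% and 14.2% in FGF, and 11.2% and 13.3% in E1728G. The ML1Y and MG libraries did not overlap with the others, and a factor that scales a whole library cancels in these shares. Within MG the split differed, with the first gene at 21% and the second at 28.4% in replicate 1, and at 41.3% and 12% in replicate 2. In SSY the member with the highest mean share was CYCD4;1 (19.6% ± 1.07, SD, n = 3). In FGF it was CYCD2;1 (15.6% ± 6.93, n = 2), and in E1728G the same gene again (25.2% ± 20.2, n = 2), where 39.5% came from replicate 2. CYCD7;1 held 21.4% and 6.1% in MG and 2.4% and 3% in ML1Y. The log2 family total per kb was 9.65 to 9.75 in ML1Y, 8.86 to 8.90 in SSY, 9.32 to 9.97 in MG, 8.41 to 8.59 in FGF and 8.43 to 8.89 in E1728G, so ML1Y and MG were also higher in the total.

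**Figure D4:**
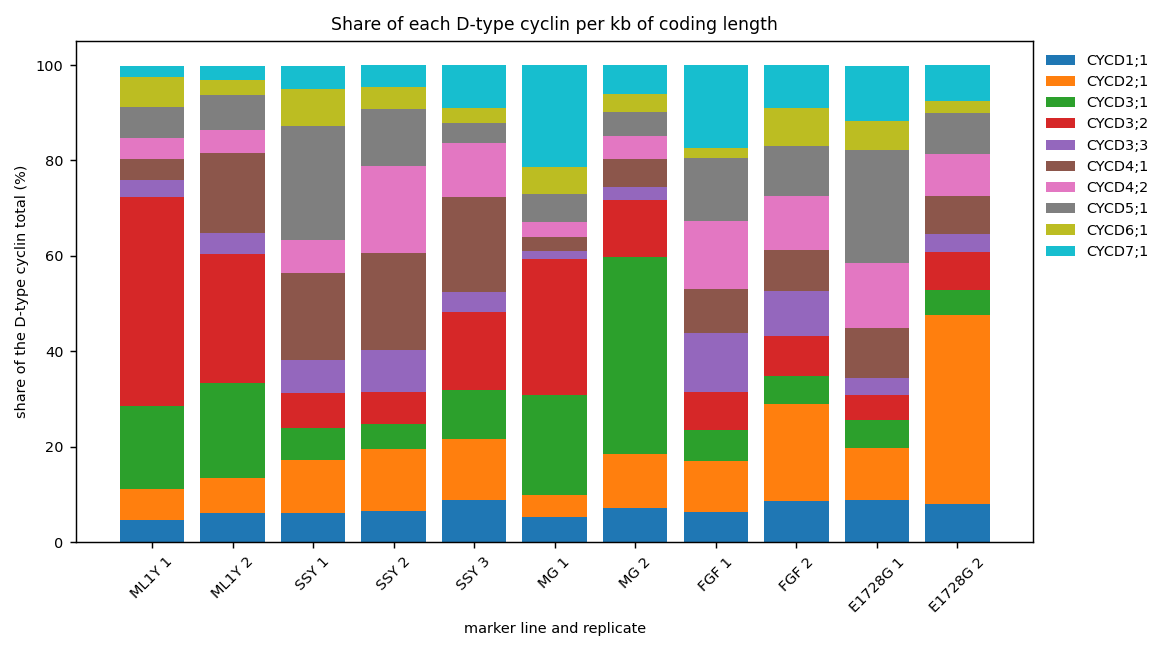
Share of each D-type cyclin (colours) in the family total of a library, in percent of the linear values per kb of coding length (vertical axis), for the 11 libraries (horizontal axis). CYCD3;1 and CYCD3;2 together hold 46.9% to 61.2% in ML1Y and MG and 11.2% to 26.5% in the other lines.

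Few of the cyclins' partners and downstream genes were called. Of 13 genes for CDKA;1, its CKS subunits and the KRP and SIAMESE-type inhibitors, 12 passed the filter (SMR4 did not). Limma called 0 of them in any of the 10 comparisons, with 0 to 3 at an unadjusted p under 0.05. Over these comparisons 0.0101% to 5.55% of all genes were called, and 3.54% to 19.6% had an unadjusted p under 0.05. A count of 0 of 12 is thus near the share of all genes. The kinase itself had its highest mean in ML1Y (6.85 ± 0.35, n = 2), followed by E1728G (6.32 ± 0.10, n = 2), MG (6.20 ± 0.75, n = 2), SSY (5.59 ± 0.46, n = 3) and FGF (5.18 ± 0.22, n = 2). Of 9 genes for RBR1 and the E2F, DP and DEL factors, E2FB, an activator of cell cycle genes, rose from SSY (6.94) to MG (10.01, adjusted p = 0.0488), and E2FC, a repressor of division, was higher in FGF (8.07) than in SSY (5.77, adjusted p = 0.0477). These were the calls of that list, 1 of 9 in each comparison, where 1.75% and 1.57% of all genes were called higher. Of 18 S phase genes, 2 rose from SSY to MG, the helicase subunit MCM2 (5.89 to 8.06, adjusted p = 0.0476) and the sliding clamp PCNA1 (4.61 to 7.19, adjusted p = 0.0445), where 1.75% of all genes rose. From MG to FGF 15 of the 18 had negative differences, with a median of -0.93 against -0.01 for all genes, and 0 were called by limma (5 at an unadjusted p under 0.05, where 8.35% of all genes had one). Of 17 mitotic cyclins and kinases 14 had negative differences in that step, with a median of -1.06 and 0 calls (6 at an unadjusted p under 0.05). From MG to E1728G 17 of the 18 S phase genes had negative differences, with a median of -0.74, and 13 of the 17 mitotic genes, with a median of -0.54 and 0 calls by limma in both lists (5 and 6 at an unadjusted p under 0.05, where 10.0% of all genes had one). Between MG and ML1Y 14 of the 18 S phase genes were positive, with a median of 0.40, and 11 of the 17 mitotic genes, with a median of 0.44, again with 0 calls by limma (5 and 3 at an unadjusted p under 0.05). For the D-type cyclins from MG to FGF the median was -0.50, with 8 of 10 negative. In other comparisons 1 of the 17 mitotic genes was called in FGF against SSY and 1 in E1728G against ML1Y. CYCB1;4 was lower in FGF (3.95) than in SSY (5.76, limma adjusted p = 0.0489), where 0.342% of all genes were. CYCB2;4 was higher in E1728G (9.51) than in ML1Y (6.25, adjusted p = 0.0247), where 0.348% of all genes were. With only the compared groups in the fit, 2 of all genes were called in MG against SSY, of which 1 was higher. At most 1 of the calls of E2FB, MCM2 and PCNA1 can thus have held there. In FGF against SSY 0 genes were called in that fit, so the calls of E2FC and CYCB1;4 ended. Comparisons that have a group in common, such as those against ML1Y, share its libraries and are not independent.

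The genes most like a cyclin over the 11 libraries were found by Pearson correlation among 10246 tested genes with a symbol, as a description only. For CYCD3;1 they were MES18 (0.956), GRP3S (0.948) and BT5 (0.943), and for CYCD3;2 A/N-InvC (0.98), PPa4 (0.973) and BZO2H3 (0.964). For CYCD7;1 they were HIPP20 (0.942), TSD2 (0.926) and ROPGEF5 (0.924). For CYCD5;1 they were ARIA (0.882), PMEI5 (0.876) and EMB2296 (0.869).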

How the data were processed

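Per the submitters' processing notes, the authors used Bowtie2 and DESeq2, without versions, and the TAIR10 build. Read counter, annotation, strand and transformation: not given in the sources used here. One table was deposited by the authors, with log2-scale values normalized over the 11 libraries. Base 2 was inferred from the tool and from the library sums of the values raised on base 2, 17236592 to 25175463. The transformation may shrink differences of low genes. Depth is unknown, so no count test or counting interval was possible, and 2 genes had no value.

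Groups were fitted with limma-trend (limma 3.58.1, R 4.3.3) on genes at or above 10 on the linear scale in at least 2 libraries. Tests were two-sided, with Benjamini-Hochberg adjustment over all 29850 genes within each of 10 comparisons and 2 F tests at 0.05. The method was tested on simulated data. All members were named, with differences printed at an unadjusted p under 0.05 and, for CYCD5;1 and CYCD7;1, between consecutive stages. List genes were named where called. AT4G34150 and the other overlapping genes, levels without a call and the promoters shown were chosen after their values were seen. Members and lists were chosen with earlier results of these data known. Replicate numbers are shared between groups, but deviations of same-numbered libraries correlated at -0.0798 to 0.0334, so they were not treated as pairs. Names, coding lengths, overlaps and promoters came from RefSeq TAIR10.1, matched by locus code. It differs from the authors' build by name, its coordinates are its own, and overlaps in the authors' annotation may differ. Upstream sequences other than those shown are not reported here.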

Additional observations from a re-analysis of the deposited data

How the results depend on the processing

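The cyclin counts stayed within 1.5 times of those reported except as follows. With only the groups compared in the fit, the cyclins called fell to 0 in SSY against ML1Y, MG against SSY, FGF against MG and E1728G against MG. In FGF against MG they also fell to 0 with quantile normalization (CYCD3;1 adjusted p = 0.0557) and with the replicate block (0.0525), whose numbers only share a name across groups. Leaving out single libraries, the count ranged from 0 to 2 in SSY, FGF and E1728G against ML1Y, from 0 to 1 in MG against SSY, FGF against MG and E1728G against MG, and from 1 to 2 in the F test over 5 groups. The cause of these changes was not tested.

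Differences that turned sign were all of uncalled results. CYCD5;1 in MG against SSY ranged from -0.87 to 0.40 when single libraries were left out, in FGF against MG from -0.51 to 0.44 (0.06 with quantile normalization) and in E1728G against FGF from -0.07 to 0.93. CYCD7;1 ranged from -2.25 to 0.21 in FGF against MG and from -0.82 to 0.33 in E1728G against FGF.

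Counts over all genes moved more. With only the groups compared, they were 901 for SSY, 1455 for FGF and 1208 for E1728G against ML1Y (1657, 629 and 728 as reported), 2 for MG, 0 for FGF and 0 for E1728G against SSY (634, 570 and 637), 1 for FGF and 3 for E1728G against MG (41 and 174), 0 for E1728G against FGF (3), and 347 for the F test over 4 stages (976). With sample weights they were 983, 2430 and 2178 for MG (482 as reported), FGF and E1728G against ML1Y, 145 for MG against SSY, 110 and 301 for FGF and E1728G against MG, 15 for E1728G against FGF, and 3096 and 620 for the F tests over 5 groups (1855 as reported) and 4 stages. Quantile normalization gave 292 for MG and 362 for FGF against SSY, 1 for FGF against MG and 557 over 4 stages. The replicate block gave 177, 171 and 332 for MG, FGF and E1728G against SSY, 2 for FGF against MG, and 1235 and 348 for the F tests. Without a mean trend there were 1 for E1728G against FGF and 898 for FGF against SSY. FGF against MG had 20 with no filter and 62 with the filter at 50, which gave 310 for E1728G against MG. Without the 3 SSY libraries, an alternative chosen after seeing the data, there were 1121 for E1728G against ML1Y, 0 against FGF and 368 against MG.

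Leaving out single libraries, the counts over all genes ranged from 296 to 1848 (SSY), 36 to 630 (MG), 89 to 722 (FGF) and 94 to 827 (E1728G) against ML1Y, 68 to 837 (MG), 3 to 857 (FGF) and 24 to 885 (E1728G) against SSY, 0 to 257 (FGF) and 11 to 368 (E1728G) against MG, 1 to 83 for E1728G against FGF, 364 to 1946 over 5 groups and 347 to 1021 over 4 stages. Unknown depth and 2 or 3 libraries a group limit what could be called.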
